A study of Mus musculus with 12 samples.

Results

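The miR-15/16 family is a group of miRNAs that share a seed, the stretch of bases near the 5′ end with which a miRNA pairs to its target mRNAs. Members were the array names of miR-15a, miR-15b, miR-16, miR-195, miR-497 and miR-322 on the 5p arm of the hairpin, and 6 of the 696 mouse miRNA names on the array met this rule. Expression was measured in C57BL/6J mice in which the right eye had worn a frosted diffuser from postnatal day 24, which deprives the eye of form vision and makes it myopic, while the left eye of the same animals was open and served as control. After 10 days, at postnatal day 34, whole retina and whole sclera were dissected and the tissue of 3 eyes was pooled for each RNA sample. This gave 4 groups of 3 arrays: control retina, myopic retina, control sclera and myopic sclera. Animals were not measured singly, and the control eye was the fellow eye, so that neither the spread between mice nor an untreated mouse is part of the comparison.

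A miRNA hairpin is cut into a 5p and a 3p arm, and as a rule one of them is kept at a much higher level. The family is known for restraining cyclins and the survival factor BCL-2, and for its loss with the Dleu2 locus in leukaemia. Its genes lie in pairs or clusters that are transcribed together: miR-15a with a copy of miR-16, miR-15b with the other copy of miR-16, miR-195 with miR-497, and miR-322 with miR-503 and further miRNAs on the X chromosome. The sclera is a collagen-rich tissue made by fibroblasts, and the retina is a neural tissue rich in photoreceptors.

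The mature sequences of the members from RefSeq (GRCm38.p6) are shown because the members differ outside the seed, and the probes of the array read those bases. Capitals mark bases 2 to 8, the seed, which was AGCAGCA in 6 of 6; the prefix mmu marks a mouse miRNA and is left out elsewhere.
mmu-miR-15a-5p: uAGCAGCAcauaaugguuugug
mmu-miR-15b-5p: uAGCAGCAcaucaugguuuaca
mmu-miR-16-5p: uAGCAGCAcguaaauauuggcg
mmu-miR-195-5p: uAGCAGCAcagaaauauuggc
mmu-miR-497-5p: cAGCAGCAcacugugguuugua
mmu-miR-322-5p: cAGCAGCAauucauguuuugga

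Aligned at the 5′ end without gaps, miR-16-5p and miR-195-5p differed at 2 of 21 positions, miR-15a-5p and miR-15b-5p at 4 of 22, and miR-16-5p and miR-497-5p at 11 of 22. RefSeq names the array's miR-195-5p and miR-497-5p miR-195a-5p and miR-497a-5p, and the array probes are complementary to these sequences. Each member was read by 2 probes of 10 spots each. A probe had at least 2 mismatches to any other member, and the closest pair was a miR-195-5p probe against miR-16-5p. Cross-hybridisation was not tested.

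In the genome build of the array (mm9), the longer miR-15a-5p probe mapped to chr14:62250878-62250899 on the minus strand. The longer miR-16-5p probe mapped to chr14:62250736-62250753 on the minus strand and to chr3:68813844-68813861 on the plus strand, so the array reads the sum of both copies. The longer miR-15b-5p probe lay at chr3:68813699-68813718, plus strand. RefSeq places the chromosome 14 pair within the long non-coding RNA gene Dleu2 and the chromosome 3 pair within Smc4, a condensin subunit gene. The miR-497-5p and miR-195-5p probes lay 312 bases apart on chromosome 11, at chr11:70048234-70048253 and chr11:70048566-70048584, plus strand, and no host gene overlapped them in RefSeq other than the miRNA gene Mir497b, which overlaps Mir497. The miR-322-5p probe lay at chrX:50407454-50407475 on the minus strand, within the long non-coding RNA gene C430049B03Rik.

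The arrays detected 274 to 401 miRNAs each. The sclera arrays were dimmer than the retina arrays, and control sclera 3 was the dimmest, with a summed signal of 200662 against 236094 to 382687 on the other sclera arrays and 591608 to 832784 on the retina arrays. The tissue labels were checked against miRNAs known as markers. The summed signal of 5 neuronal and photoreceptor miRNAs (miR-124-3p, miR-183-5p, miR-182-5p, miR-96-5p and miR-9-5p) was 197559 to 297315 on retina arrays and 735 to 13205 on sclera arrays, lowest in control sclera 3. The 3 mesenchymal miRNAs (miR-199a-3p, miR-199a-5p and miR-214-3p) summed to 45.1 to 236 on retina arrays, with miR-214-3p undetected on all of them, and to 4817 to 14097 on sclera arrays. The part of neuronal tissue in the sclera values of the members was not tested. Fewer cells of a type and less RNA per cell cannot be told apart in these pools.

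The question of the tissue comparison was how the members were distributed between the retina and the sclera. The family split. In control eyes, miR-15a-5p, miR-16-5p and miR-15b-5p were higher in the retina, by 2.54-fold, 1.87-fold and 1.46-fold, whereas miR-195-5p, miR-497-5p and miR-322-5p were lower, by 1.35-fold, 1.76-fold and 7.56-fold. In limma, with Benjamini-Hochberg adjustment over 443 miRNAs, 6 of 6 members had an adjusted p-value under 0.05, beside 61.2% of all miRNAs tested: 3 were higher in the retina (34.8% of all) and 3 lower (26.4%). The threshold of a call, an adjusted p-value under 0.05 with at least 2-fold change, was passed by miR-15a-5p and miR-322-5p, 2 of 6, beside 50.6% of all miRNAs, of which 1 was higher (27.5%) and 1 lower (23%). The median difference over the members was 0.06 on the log2 scale (0.30 over all 443 miRNAs).

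All levels below are total gene signals, the background-subtracted fluorescence of the detected probes of a miRNA without normalization, or normalized log2 values, the same signals after a floor of 0.5 and quantile normalization over 12 arrays. Arrays are named in the order of pools 1, 2 and 3. Signals of different miRNAs cannot be compared as amounts, because probes differ in their response. No member was saturated, and 6 of 6 were detected on 12 of 12 arrays.

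miR-15a-5p had total gene signals of 2427, 2824 and 3722 in control retina and 3017, 4085 and 2536 in myopic retina. In the sclera it had 853, 1093 and 212 in control and 779, 669 and 601 in myopic eyes. The 6 retina arrays lay above the 6 sclera arrays, and control sclera 3 stood apart below the other sclera arrays. After normalization the means were 11.12 ± 0.13 in control retina, 11.14 ± 0.07 in myopic retina, 9.77 ± 0.37 in control sclera and 10.02 ± 0.02 in myopic sclera (SD, n = 3 each). The retina minus sclera difference was 1.34 (SE 0.18, limma adjusted p = 0.000102) in control eyes and 1.12 (SE 0.18, limma adjusted p = 0.000317) in myopic eyes. Without control sclera 3 the difference in control eyes was 1.13. That array also had the lowest neuronal signal, 735 against 3357 to 13205 on the other sclera arrays, and the part of this in its miR-15a-5p value was not tested.

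miR-16-5p, the partner of miR-15a and miR-15b, had total gene signals of 2642, 2719 and 3353 in control retina and 3024, 4029 and 2381 in myopic retina. In the sclera it had 1041, 1215 and 367 in control and 812, 685 and 618 in myopic eyes. Retina and sclera arrays did not overlap. The normalized mean was 11.07 ± 0.06 in control retina, 11.10 ± 0.13 in myopic retina and 10.11 ± 0.07 in myopic sclera (SD, n = 3 each). The 3 control sclera arrays shared the value 10.17. Quantile normalization gives the same value to the same rank, so this is no measure of the spread of their signals. Its retina minus sclera difference was 0.90 (SE 0.11, limma adjusted p = 4.99e-05) in control and 0.99 (SE 0.11, limma adjusted p = 2.16e-05) in myopic eyes, just under the 2-fold line in both.

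miR-15b-5p had total gene signals of 1188, 1373 and 1813 in control retina and 1460, 1984 and 1220 in myopic retina. In the sclera the signals were 598, 689 and 247 in control and 443, 407 and 409 in myopic eyes. Every retina array was again above every sclera array, also after normalization, where the retina spanned 9.94 to 10.28 and the sclera 9.51 to 9.65. Its retina minus sclera difference was 0.54 (SE 0.12, limma adjusted p = 0.00303) in control and 0.63 (SE 0.12, limma adjusted p = 0.00105) in myopic eyes.

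miR-195-5p had total gene signals of 867, 949 and 1178 in control retina and 926, 1253 and 930 in myopic retina. In the sclera the signals were 834, 1117 and 331 in control and 730, 665 and 558 in myopic eyes. Its raw signals therefore overlapped between the tissues, unlike those of the 3 members above. Normalized, they separated with the sclera higher, at 9.88 to 10.03 against 9.38 to 9.76 in the retina. The difference, retina minus sclera, was -0.43 (SE 0.12, limma adjusted p = 0.0119) in control and -0.45 (SE 0.12, limma adjusted p = 0.00826) in myopic eyes.

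miR-497-5p, the cluster partner of miR-195, had total gene signals of 630, 725 and 885 in control retina and 697, 943 and 702 in myopic retina. In the sclera the signals were 743, 1029 and 312 in control and 687, 628 and 536 in myopic eyes. The raw signals overlapped, and the normalized values did not, at 8.96 to 9.22 in the retina and 9.81 to 9.94 in the sclera. The retina minus sclera difference was -0.82 (SE 0.11, limma adjusted p = 0.000155) in control and -0.81 (SE 0.11, limma adjusted p = 0.000152) in myopic eyes.

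miR-322-5p, the mouse counterpart of human miR-424, was the member with the largest difference. Its total gene signals were 67.8, 75.9 and 113 in control retina and 70.3, 94.3 and 71.2 in myopic retina. In the sclera they were 390, 483 and 122 in control and 317, 304 and 243 in myopic eyes. The highest retina array, control retina 3, came close to the lowest sclera array, control sclera 3, in raw signal, and the arrays were well apart after normalization. The normalized means were 6.00 ± 0.59 in control retina, 5.30 ± 0.24 in myopic retina, 8.92 ± 0.28 in control sclera and 9.10 ± 0.11 in myopic sclera (SD, n = 3 each). The retina minus sclera difference was -2.92 (SE 0.28, limma adjusted p = 1.13e-05) in control and -3.80 (SE 0.28, limma adjusted p = 1.52e-06) in myopic eyes, the latter a 13.9-fold lower level in the retina.

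**Figure D1:**
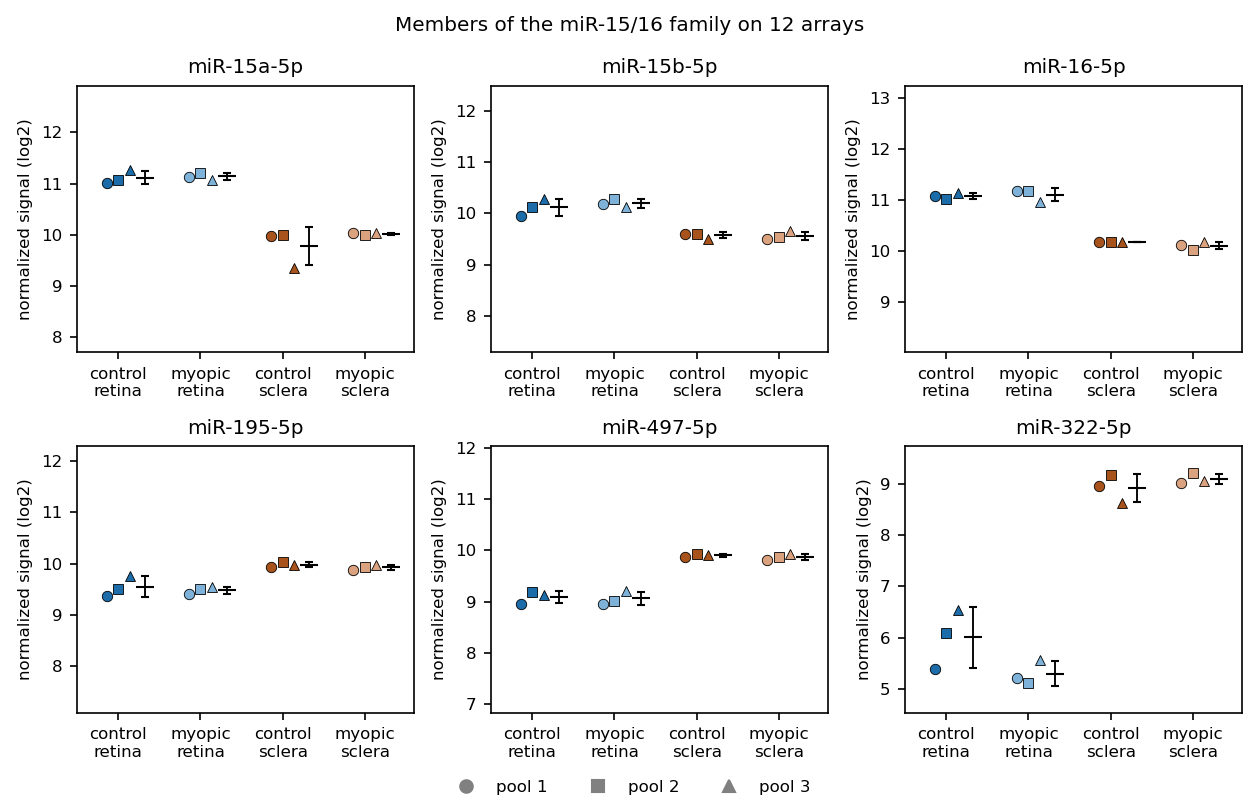
Normalized signal (log2) of the 6 members in the 4 groups, with circles, squares and triangles for pools 1, 2 and 3 and bars for the mean and SD of 3 arrays. Panels cover equal spans but start at different levels; miR-15a-5p, miR-15b-5p and miR-16-5p sit higher in the retina, miR-195-5p and miR-497-5p higher in the sclera, and miR-322-5p far higher in the sclera, while control and myopic arrays of a tissue overlap for each member.

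In myopic eyes, the tissue comparison gave the same 2 calls, miR-15a-5p and miR-322-5p, of 6 members, beside 58.9% of all miRNAs, with 1 higher in the retina (32.5%) and 1 lower (26.4%). An adjusted p-value under 0.05 was again reached by 6 of 6 in limma, beside 69.3%, with 3 higher (38.6%) and 3 lower (30.7%). In normalized values, the retina and sclera arrays did not overlap for 6 of 6 members in control eyes (58.9% of all miRNAs) or in myopic eyes (78.6%). The members were thus not set apart by differing between the tissues, since most miRNAs did. The lack of overlap fixes the sign within each pool, so the pools add nothing on direction. Normalized, miR-15a-5p, miR-15b-5p and miR-16-5p were higher in the retina in each of the 3 pools, and the other members lower. This held in control and in myopic eyes. Total gene signals of miR-195-5p in control eyes were higher in the retina in pools 1 and 3 (867 against 834, 1178 against 331) and lower in pool 2 (949 against 1117). For miR-322-5p the differences in pools 1, 2 and 3 were -3.58, -3.10 and -2.07 in control eyes and -3.81, -4.10 and -3.49 in myopic eyes.

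The size of these differences depended on how the arrays were brought to a common scale. For the 246 miRNAs with signal on 12 of 12 arrays, the median retina minus sclera difference in control eyes was 1.17 without normalization and -0.24 after quantile normalization. The order of the members, from miR-15a-5p through miR-16-5p, miR-15b-5p, miR-195-5p and miR-497-5p to miR-322-5p, was the same under the 6 scalings plotted. Without normalization, miR-15a-5p, miR-15b-5p and miR-16-5p were all called higher in the retina of control eyes (miR-15b-5p 1.62 and miR-16-5p 1.90), while miR-195-5p and miR-497-5p turned to the retina side, at 0.55 and 0.25, with limma adjusted p = 0.272 and 0.617. With quantile normalization inside each tissue, which keeps the brightness gap between the tissues, miR-195-5p passed the test on the retina side, at 0.54 in control eyes (limma adjusted p = 0.00179) and 0.56 in myopic eyes (limma adjusted p = 0.00135).

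When scaled to the 75th percentile over all 696 names, miR-15a-5p, miR-16-5p and miR-15b-5p were at 0.76, 0.32 and 0.042 in control eyes and at 0.048, -0.032 and -0.30 in myopic eyes, and miR-195-5p and miR-497-5p were called lower in the retina. miR-322-5p was called lower in the retina with each of the 12 arrays left out and under the 15 other alternatives, with differences of -3.35 to -1.21 in control eyes and -4.04 to -1.39 in myopic eyes.

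**Figure D2:**
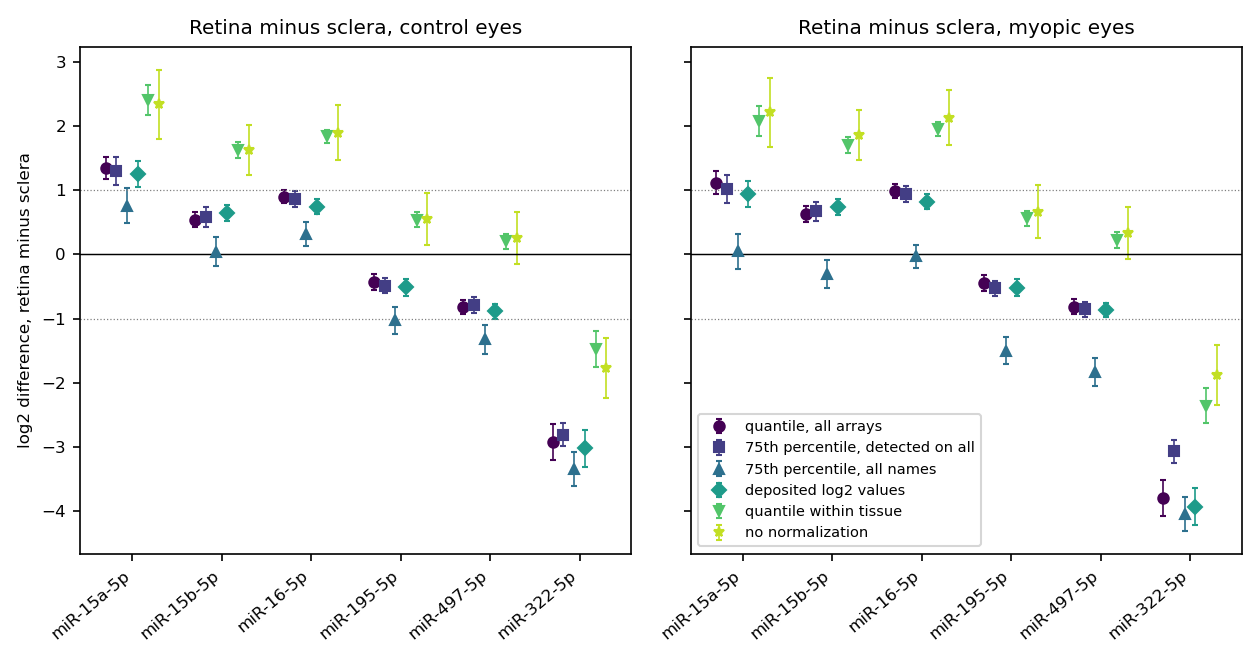
Retina minus sclera difference (log2, limma estimate with its SE as bar) of the 6 members in control eyes (left) and myopic eyes (right) under 6 ways of scaling the arrays. Dotted lines mark a 2-fold difference; the scalings shift the members together, so that miR-195-5p and miR-497-5p change side of 0 while miR-322-5p stays lowest under each.

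Ratios of 2 members on the same array do not change when a whole array is multiplied by a factor, and were used to describe the split without normalization. Of the 15 pairs of members, 14 had within-array ratios that did not overlap between the 6 retina and the 6 sclera arrays, beside 69.8% of all pairs of miRNAs detected on 12 arrays. The pair that overlapped was miR-15a-5p with miR-16-5p, whose log2 ratio was -0.12 to 0.15 in the retina and -0.79 to -0.03 in the sclera. miR-195-5p and miR-497-5p come from a single cluster. Their log2 ratio separated the tissues, at 0.39 to 0.46 in the retina and 0.06 to 0.17 in the sclera, a 1.24-fold shift.

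The wide ratios were those between clusters. The log2 ratio of miR-16-5p to miR-195-5p, the closest pair in sequence, was 1.36 to 1.71 on retina arrays and 0.04 to 0.32 on sclera arrays, a 2.65-fold shift between the tissue means. miR-15a-5p to miR-497-5p shifted by 3.95-fold, and miR-15a-5p to miR-322-5p by 17.1-fold. The ratio of miR-15a-5p to miR-15b-5p had a narrow range in the retina, 1.03 to 1.05 over 6 arrays, and a wide one in the sclera, -0.22 to 0.81, of which 0.51 to 0.81 remained without control sclera 3. On that array miR-15a-5p was thus low relative to miR-15b-5p and miR-16-5p as well. These ratios were described without a test.

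**Figure D3:**
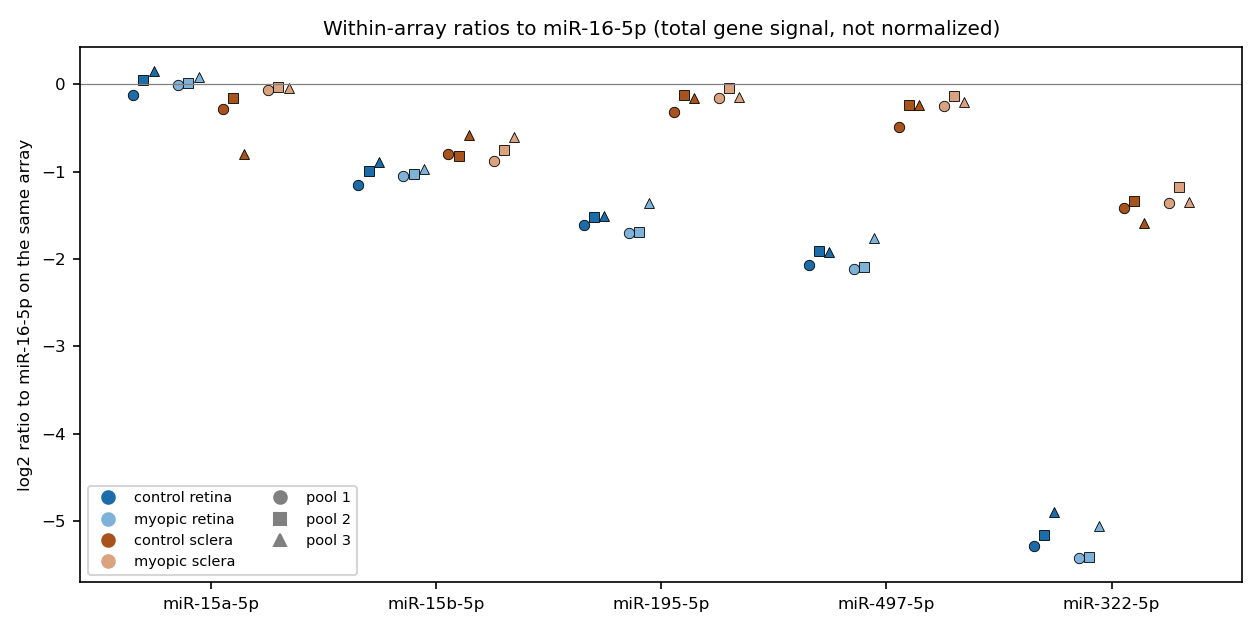
Log2 ratio of 5 members to miR-16-5p on the same array, from total gene signals without normalization, for 12 arrays coloured by group and with a symbol for each pool. Retina points lie far below sclera points for miR-195-5p, miR-497-5p and miR-322-5p, and control and myopic arrays of a tissue lie together; the low miR-15a-5p triangle is control sclera 3.

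Without normalization, the 2 probes of each member gave the same direction of the tissue difference as each other. In control eyes the probes of miR-195-5p (0.55 and 0.55) and miR-497-5p (0.04 and 0.30) lay on the retina side. That is opposite to the normalized differences of these members. Before normalization, the probes of a member differed from each other by 0.0015 to 0.42 in the log2 difference of control retina against control sclera. The widest gap was that of miR-15b-5p, whose probes of 19 and 20 bases gave 1.31 and 1.73. The probes of miR-322-5p gave -1.82 and -1.74.

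The question of the second comparison was whether 10 days of form deprivation changed the members. In the retina, 0 of 6 members were called in limma, beside 0.226% of all miRNAs, and 0 of 6 had an adjusted p-value under 0.05 (0.451%); the unadjusted p was under 0.05 for 1 member, miR-322-5p (29.3% of all miRNAs), with limma and likewise with an ordinary linear model. The estimates of miR-15a-5p, miR-15b-5p, miR-16-5p, miR-195-5p and miR-497-5p lay between -0.07 and 0.08, and their 95% confidence intervals between -0.37 and 0.42, so that with quantile normalization a change of 2-fold lay outside the interval of each of these 5 members. Scaled to the 75th percentile over all names, their estimates were -0.41 to -0.36, and 0 passed the test. Control and myopic arrays did not overlap for 0 of 6 members (14.4% of all miRNAs). The median over the 6 members was -0.0023, beside -0.12 over all 443 miRNAs.

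In the sclera, 0 of 6 members were called or had an adjusted p-value under 0.05 in limma (0% of all miRNAs for both), and the unadjusted p was under 0.05 for 0 members (2.93% of all miRNAs). Control and myopic arrays did not overlap for 0 of 6 (5.42%). Estimates ran from -0.06 for miR-16-5p to 0.24 for miR-15a-5p, and the 95% confidence intervals from -0.46 to 0.81. The value of miR-15a-5p depended on control sclera 3: it was 0.24 (SE 0.18) with that array and 0.03 without it. The retina and sclera changes did not differ for any member at an adjusted p-value under 0.05 in limma (0 of 6, beside 0.226% of all miRNAs; unadjusted p under 0.05 for 0 of 6, beside 8.13%).

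Among the members, miR-322-5p had the largest estimate of a retinal change. Its normalized values were 5.38, 6.08 and 6.55 in control retina and 5.21, 5.11 and 5.57 in myopic retina. Pools 2 and 3 were lower in the myopic eye by close to 1 log2 unit, pool 1 by 0.17, and the groups overlapped. The difference was -0.71 (SE 0.28, 95% confidence interval -1.34 to -0.07, limma adjusted p = 0.151). It was -0.42 (limma adjusted p = 0.470) without control retina 3, -1.03 (limma adjusted p = 0.00646) without control retina 1, and -0.88 (limma adjusted p = 6.05e-05) with array weights, fits in which 122 and 146 of all miRNAs were called. It was -0.20 when arrays were scaled to the 75th percentile of those with signal on each array and -0.10 without normalization; the median of the same 246 miRNAs was itself -0.21 with quantile normalization. The summed signal of the 3 mesenchymal miRNAs was 45.1, 60.2 and 236 in control retina and 52.1, 79.2 and 53.8 in myopic retina, so control retina 3 was the highest array for both; its part in the difference was not tested.

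The difference between the retinal and the scleral change of miR-322-5p was -0.88 (SE 0.40, limma adjusted p = 0.380), -0.59 without control retina 3 (limma adjusted p = 0.616) and -1.201 without control retina 1 (limma adjusted p = 0.0174). It was -0.95 with array weights (limma adjusted p = 0.000791) and -0.11 without normalization (limma adjusted p = 0.998).

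The other arms of the members' hairpins were described as a list of 4 names on the array: miR-15a-3p, miR-16-1-3p, miR-15b-3p and miR-322-3p. miR-15b-3p was detected on no array. Both 3p arms of the chromosome 14 hairpins were detected in the retina and on none of the 6 sclera arrays. Capitals mark bases 2 to 8 of these arms, which do not hold the seed of the 5p arms.
mmu-miR-15a-3p: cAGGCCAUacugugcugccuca
mmu-miR-16-1-3p: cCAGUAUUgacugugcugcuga

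miR-15a-3p had total gene signals of 135 and 25.1 in control retina 1 and 2, was not detected in control retina 3, and had 203.8, 287 and 128 in myopic retina. miR-16-1-3p, which unlike miR-16-5p stems from the chromosome 14 copy alone, had 148 and 23.4 in control retina 1 and 2, was not detected in control retina 3, and had 228, 315 and 152 in myopic retina. The 2 arms went together: their log2 ratio stayed between -0.24 and 0.10 on the 5 arrays with both detected. The 5p arms on the same arrays did not follow this pattern, and control retina 3 had the highest control value of miR-15a-5p and miR-16-5p. The log2 ratio of miR-15a-5p to miR-15a-3p was 3.83 to 4.31 in myopic retina and 4.17 and 6.81 in control retina 1 and 2.

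The fitted retinal differences were 3.38 (SE 1.49, limma adjusted p = 0.168) for miR-15a-3p and 3.66 (SE 1.498, limma adjusted p = 0.152) for miR-16-1-3p, neither of which passed the test. In normalized values the control and myopic arrays did not overlap for either arm, with the myopic arrays higher, as for 5.19% of all miRNAs. In total gene signal miR-15a-3p overlapped, with 135 in control retina 1 and 128 in myopic retina 3. The size of the fitted differences depends on the value given to the undetected array. Without control retina 1 they were 4.92 and 5.30 and passed it, with limma adjusted p = 0.0140 and 0.00803, and with array weights 2.33 and 2.80, with limma adjusted p = 0.00345 and 0.000880. Without control retina 3, the array that lacked both arms, they were 1.15 and 1.44 (limma adjusted p = 0.314 for both), and with normexp background correction 0.31 and 0.37 (limma adjusted p = 0.102 and 0.0881). Detection on the 3 myopic arrays and on control retina 1 and 2 but not 3 was found for 16 of the 443 miRNAs (3.61%), and 72 miRNAs (16.3%) were detected on more myopic than control retina arrays.

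Neither arm was detected in myopic sclera. On the quantile-normalized scale they were at least 7.47-fold (miR-15a-3p) and 8.87-fold (miR-16-1-3p) higher in myopic retina than in myopic sclera. This bound takes, for the sclera, the dimmest signal that counted as detected on each array, and was higher without normalization. The bound itself was not tested. The fit of floored, quantile-normalized values gave differences of 7.76 and 8.01 in myopic eyes (limma adjusted p = 0.00112 and 0.000965). On the quantile-normalized scale no such bound above 1 was reached in control eyes, where control retina 3 lacked signal too. There the fit gave limma adjusted p = 0.0290 and 0.0303. For miR-15a-3p the limma adjusted p was 0.0870 without control retina 1 and 0.0643 without control sclera 3. The control-eye calls of miR-15a-3p and miR-16-1-3p were each lost in 5 of the 12 fits without an array, with limma adjusted p up to 0.0986. Each was also lost under 4 of 14 other alternatives. Detection on 3 myopic retina arrays and no sclera array was found for 78 miRNAs (17.6%).

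**Figure D4:**
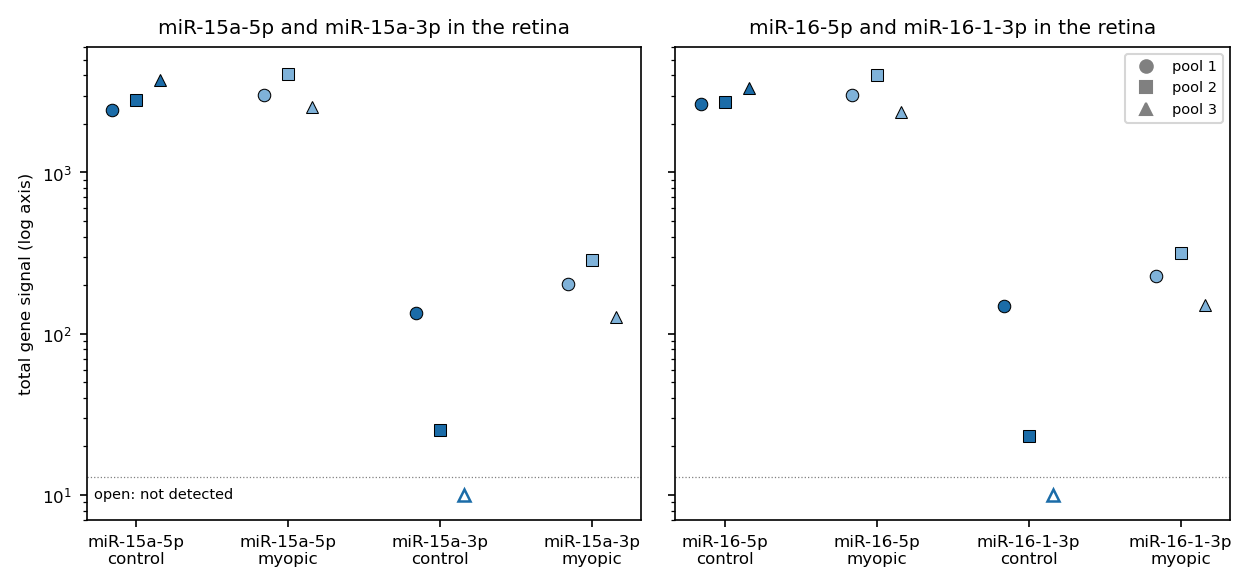
Total gene signal (log axis, not normalized) of the 5p and 3p arms of the miR-15a and miR-16-1 hairpins on the 6 retina arrays, with circles, squares and triangles for pools 1, 2 and 3; open symbols below the dotted line mark no detection and have no height. The 5p arms are level between control and myopic retina, and the 3p arms run from not detected to 148 in control and from 128 to 315 in myopic retina.

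miR-322 lies in a cluster on the X chromosome, and its neighbours were taken as a list of 9 names from miR-503, miR-351, miR-542, miR-450a and miR-450b, of which 6 were detected on any array. With the 3p arm of miR-322 this made 7 tested names. miR-503-5p is nearest in sequence to the members, with a seed that differs only in its last base.
mmu-miR-503-5p: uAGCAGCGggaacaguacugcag

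miR-503-5p had total gene signals of 34.7, 38.7 and 8.38 in control sclera and 29.2, 27.3 and 19.95 in myopic sclera, and was detected on 0 of 6 retina arrays. The least that this implies was computed by setting the retina at the dimmest signal that counted as detected on each array, and it depended on the scale. Without normalization miR-503-5p was at least 5.54-fold higher in control sclera and 6.81-fold higher in myopic sclera. On the quantile-normalized scale the corresponding values were 15.8-fold and 50.3-fold. These bounds were not tested. The fit, with each retina value at the floor, gave retina minus sclera differences of -6.88 and -6.97 (limma adjusted p = 3.41e-10 and 3.06e-10). Values at the floor have no spread, which enters the SE of 0.16.

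miR-450a-5p had the same pattern, with 39.96, 51.9 and 6.62 in control and 41.1, 35.0 and 28.5 in myopic sclera and no detection in the retina. It was at least 5.53-fold and 8.13-fold higher in the sclera without normalization (15.8-fold and 61.1-fold on the quantile-normalized scale). The fit, with the retina at the floor, gave -6.98 and -7.45 (limma adjusted p = 1.19e-08 and 7.29e-09). With normexp background correction, which adds 50 to each signal, the retina minus sclera log2 differences of miR-503-5p were -0.27 and -0.33 and those of miR-450a-5p -0.30 and -0.39, under the 2-fold line. Detection on 6 sclera and 0 retina arrays was found for 9 of the 443 miRNAs (2.03%).

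miR-322-3p, miR-450b-3p and miR-542-3p were detected on 5 sclera arrays, missing control sclera 3, and on no retina array. In myopic eyes they were at least 1.18-fold, 2.53-fold and 5.31-fold higher in the sclera without normalization, and 14.5-fold, 22.9-fold and 40.9-fold on the quantile-normalized scale. The raw signal of miR-322-3p in the sclera, 3.67 to 7.17, was thus close to the dimmest retina signals that counted as detected. The fit in myopic eyes, with the retina at the floor, gave -5.17, -5.84 and -6.67 (limma adjusted p = 0.00207, 0.00214 and 0.00241). Detection on 5 or 6 sclera and 0 retina arrays was found for 15 of the 443 miRNAs (3.39%). miR-351-5p was detected on 3 sclera arrays and did not pass the test in either condition.

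miR-542-5p was detected on 12 arrays, with 36.1, 42.5 and 19.8 in control sclera and 37.7, 29.7 and 26.6 in myopic sclera. Its retina signals were 4.24, 5.74 and 10.2 in control and 3.53, 5.68 and 3.68 in myopic eyes. The retina arrays lay below the sclera arrays, and control retina 3 was again the highest of the control retinas. The retina minus sclera difference was -3.83 (SE 0.47, limma adjusted p = 6.59e-05) in control and -5.78 (SE 0.47, limma adjusted p = 2.99e-06) in myopic eyes. Its size depended on the processing: the alternatives other than leaving out an array gave -4.20 to -0.28 in control and -6.14 to -0.33 in myopic eyes. The normalized mean in myopic retina, 0.54, was near the 0.32 used there as the dimmest detected signal for miR-503-5p. In the retina the normalized control and myopic values did not overlap, with the myopic eyes lower (9.26% of all miRNAs), while the raw signals did. The myopic minus control difference was -1.91 (SE 0.47, limma adjusted p = 0.134), -2.24 without control retina 1 (limma adjusted p = 0.00165) and -1.36 without control retina 3 (limma adjusted p = 0.314). It was -2.15 with array weights (limma adjusted p = 4.79e-06), -0.69 with the 75th percentile scaling, -0.58 without normalization and -0.021 with normexp, none of these 3 passing the test.

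Of the 7 cluster names, 6 were called lower in the retina of control eyes and 6 in that of myopic eyes, beside 23% and 26.4% of all miRNAs. The 6 names without retina signal entered the test only through detection in the sclera. They could come out only lower in the retina, so the count says nothing on direction beyond miR-542-5p. In control eyes the calls of miR-322-3p, miR-450b-3p and miR-542-3p were each lost in 5 of the 12 fits without an array (control retina 1, 2 or 3 or control sclera 1 or 2), with limma adjusted p up to 0.0905, 0.0892 and 0.0892, and under 3 of 14 other alternatives. With limma, 0 of 7 were called after form deprivation in either tissue. The retina test says nothing of the 6 that had no retina signal, and in the sclera the unadjusted p was under 0.05 for 0 of 7. On the arrays that detected both, the log2 ratio of miR-322-5p to miR-503-5p stayed between 3.44 and 3.87 over 6 sclera arrays.

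**Figure D5:**
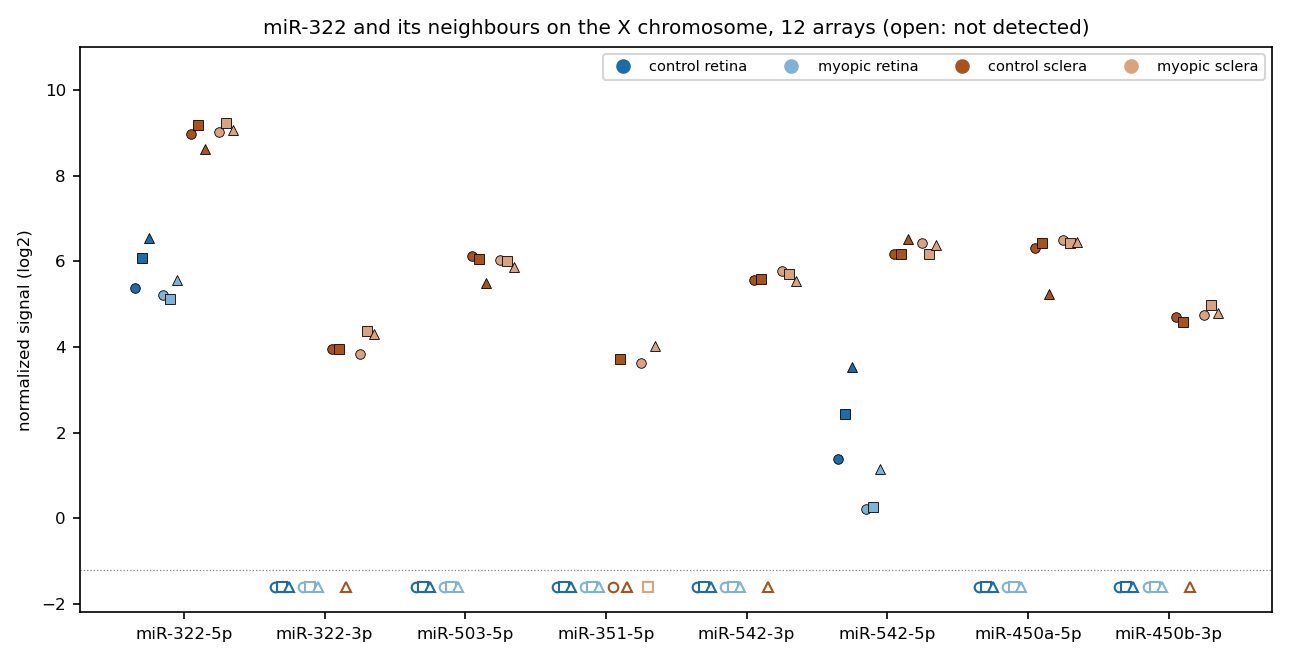
Normalized signal (log2) of miR-322-5p, its 3p arm and 6 detected X-cluster neighbours on the 12 arrays, coloured by group, with circles, squares and triangles for pools 1, 2 and 3; open symbols below the dotted line mark no detection. Sclera points lie above retina points for each miRNA that was detected in both, and 6 of the 8 miRNAs have no filled retina point.

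miR-103-3p and miR-107-3p, known as regulators of insulin sensitivity, hold the members' seed letters shifted by 1 base, at bases 1 to 7, marked in capitals, and were the only others of the 558 array names with a RefSeq sequence to hold these letters at bases 1 to 7 or 2 to 8.
mmu-miR-103-3p: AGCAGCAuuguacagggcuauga
mmu-miR-107-3p: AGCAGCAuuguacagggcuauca

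Both lay on the retina side, as miR-15a-5p did. miR-107-3p had total gene signals of 2322, 2616 and 2753 in control and 2550, 3386 and 2408 in myopic retina, and of 684, 837 and 332 in control and 581, 484 and 445 in myopic sclera. In the fit it was higher in the retina by 1.04 (SE 0.11, limma adjusted p = 2.43e-05) in control and 1.28 (SE 0.11, limma adjusted p = 4.66e-06) in myopic eyes. For miR-103-3p it was 0.97 (SE 0.21, limma adjusted p = 0.00324) and 1.30 (SE 0.21, limma adjusted p = 0.000452). The size depended on the processing. In control eyes, alternatives other than leaving out an array gave 0.57 to 2.15 for miR-107-3p and 0.48 to 2.06 for miR-103-3p. In myopic eyes these gave 0.29 to 2.46 and 0.22 to 2.38, with limma adjusted p up to 0.215 and 0.374. Leaving out an array gave 0.82 to 1.26 for miR-103-3p in control eyes. Neither changed with form deprivation at an adjusted p-value under 0.05 in limma, with estimates of 0.06 and 0.08 in the retina and -0.27 and -0.16 in the sclera. The 2 mature sequences differ little, and their probes may share signal.

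The miRNAs whose profile over the 12 arrays was most like that of each member were named by the root mean square difference of centred normalized log2 values among 245 candidates detected on all arrays. They were miR-30e-5p (0.06), let-7g-5p (0.11) and miR-872-5p (0.13) for miR-15a-5p, and miR-34a-5p (0.08), miR-25-3p (0.09) and miR-30a-5p (0.14) for miR-15b-5p. For miR-16-5p they were miR-92a-3p (0.13), miR-1224-5p (0.14) and miR-410-3p (0.14). For miR-195-5p they were miR-93-5p (0.14), let-7a-5p (0.14) and miR-378-3p (0.16), and for miR-497-5p miR-130a-3p (0.13), let-7i-5p (0.15) and let-7b-5p (0.16). For miR-322-5p the nearest were miR-143-3p (0.21), miR-23a-3p (0.25) and miR-27a-3p (0.29). These distances grow with the size of a miRNA's own differences. The median over all candidates was 1.66 for miR-322-5p and 0.69 for miR-195-5p.

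The members themselves ranked less high in each other's lists. miR-497-5p was at rank 7 for miR-195-5p (0.20) and miR-195-5p at rank 6 for miR-497-5p, while miR-16-5p was at rank 9 for miR-15a-5p (0.24) and at rank 15 for miR-15b-5p (0.20). miR-322-5p lay far from the rest, at rank 225 for miR-15a-5p (2.32) and rank 202 for miR-497-5p (1.32).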

How the data were processed

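Expression was profiled on 12 one-colour Agilent mouse miRNA arrays, 3 pools of 3 eyes in each of 4 groups. The authors deposited scanner output (Feature Extraction 11.0.1.1 per the file headers), in which the total gene signal is a background-subtracted intensity that is not normalized between arrays. The authors also deposited log2 values for 437 of the 696 names, floored, quantile normalized and transformed (Partek 6.6 per the submitters' processing notes); they were used as an alternative, and correlated at 0.9994 with the values computed here.

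Total gene signals were floored at 0.5, quantile normalized over 696 names and 12 arrays and log2-transformed. Without a detection on any array, 253 miRNAs were dropped. The other 443 were tested in one limma 3.58.1 fit (R 4.3.3) of the 4 groups with 8 residual degrees of freedom, two-sided, with Benjamini-Hochberg adjustment over 443. A call needed an adjusted p-value under 0.05 and at least 2-fold change. Folds are on the floored log2 scale. The script was tested on simulated data. Figures used Python 3.11.15 and matplotlib 3.10.9. The number of arrays limits the precision.

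Pool numbers pair the samples, since both eyes of the same mice carry a number in the labels, and a number is also a slide. The labels number single mice where the protocol describes pools of 3 eyes, and the protocol was followed. Deviations from the group means of same-numbered control and myopic arrays correlated at 0.38, -0.46 and 0.59 in the retina and at -0.14, -0.16 and -0.0015 in the sclera. Each group had the same position on each slide, so position and group cannot be told apart.

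The members, the list of hairpin arms and X-cluster neighbours, the marker lists and the tests were chosen with earlier results of these data known. Named miRNAs were all members, the listed arms and neighbours that were called (or, where none was, detected on 12 arrays), seed relatives, and the 3 nearest profiles of each member. The miR-15a-3p, miR-16-1-3p and miR-542-5p values after form deprivation, and miR-351-5p, were named after their values were seen. Other markers checked were pigment, muscle, red cell, leukocyte and endothelial miRNAs; their summed signals were 18089 to 23878, 178 to 406, 257 to 567, 87.3 to 134 and 1337 to 1770 on retina arrays and 3137 to 7153, 660 to 2801, 286 to 827, 254 to 679 and 1377 to 4005 on sclera arrays. Bounds on folds without normalization were added after seeing the data. Alternatives were other scalings, floors, background corrections, filters, models, the pool as a block and each array left out.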

Additional observations from a re-analysis of the deposited data

How the results depend on the processing

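Of the 6 members, 2 were called in each tissue comparison. In control eyes 4 were called without normalization and 4 when each tissue was normalized on its own. In myopic eyes these settings called 4 and 4, while normexp background correction and the deposited log2 values called 1, miR-322-5p, with miR-15a-5p at 0.96 and 0.95. miR-16-5p was also called there with array weights (1.06). Scaled to the 75th percentile over all names, 3 of 6 members in myopic eyes had an adjusted p-value under 0.05, and the calls there were lower values of miR-195-5p, miR-497-5p and miR-322-5p. The direction of miR-195-5p turned in control eyes to 0.55 without normalization and 0.54 with normalization within tissue, and in myopic eyes to 0.66 and 0.56. That of miR-497-5p turned to 0.25 and 0.20, and to 0.33 and 0.23. In myopic eyes miR-15b-5p and miR-16-5p turned to -0.30 and -0.032 with the 75th percentile over all names. The cause was not tested.

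After form deprivation, leaving out each array in turn gave 0 to 1 called members in the retina and 0 to 1 for the difference between the changes, and as many with an adjusted p-value under 0.05. The 1 was miR-322-5p without control retina 1. Array weights put 2 members under 0.05 in the retina (miR-322-5p and miR-497-5p) and 2 in the difference between the changes (miR-322-5p and miR-16-5p). With the pool as a block, 0, 0, 2, 2 and 0 members were called, as without it, and no call of a member changed. Of 804 member values under alternatives, 56 changed sign, of which 46 had no adjusted p-value under 0.05 either way and count as having no direction.

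Over all miRNAs, 1 was called in the retina, 146 with array weights, 122 without control retina 1 and 13 without myopic retina 3. In control eyes 224 differed between tissues (122 higher and 102 lower in the retina), against 62 with normexp and 128 among miRNAs detected on all arrays. In myopic eyes 261 differed (117 lower), against 70 and 139. The splits, higher to lower in control and in myopic eyes, were 224 to 44 and 266 to 42 without normalization, 243 to 43 and 254 to 51 with normalization within tissue, and 160 to 81 and 196 to 82 with the 75th percentile of miRNAs having signal on each array. They were 27 to 35 and 33 to 37 with normexp, and 45 to 83 and 44 to 95 among miRNAs detected on all arrays. For the difference between the changes 1 was called, 156 with array weights, 112 without control retina 1 and 0 with the pool as a block. Dim miRNAs such as miR-322-3p or miR-351-5p had total gene signals of 2.44 to 7.17 where detected. The part of background in these signals was not tested. With normexp tissue calls of dim miRNAs fell under the 2-fold line, among them miR-15a-3p and miR-16-1-3p at 0.51 and 0.59 and miR-542-5p at -0.33, all in myopic eyes.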
